A study of Mus musculus with 6 samples.

Results

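RNA-seq of the A20 line, a mouse B cell lymphoma, was examined for 42 genes that carry glucose and lactate across membranes, run glycolysis, gate pyruvate at its exit, and build or break down glycogen. They were taken by symbol from a list of pathway genes, out of 27179 gene identifiers. The list was chosen with earlier results of these data known. Every one of the 42 had a row, and 36 of them were among the 12430 genes that passed the filter on low counts and were tested. The 3 groups had 2 libraries each. Wild-type A20 cells carried no construct. Control sgRNA cells carried TETact-v3 with a non-targeting sgRNA, and Cd4 sgRNA cells carried the same system with an sgRNA to the Cd4 promoter. TETact-v3 joins a nuclease-dead Cas9 that gathers copies of the TET1 catalytic domain, which removes DNA methylation, with a p65-hsf1 activator held by MS2 aptamers in the sgRNA. Its parts were delivered by lentivirus, the cells were sorted on fluorescent reporters, and both transduced groups were collected on day 7 after the sgRNA. The wild-type cells were not transduced, so the vectors, the sorting and TETact-v3 itself cannot be told apart as differences from wild type.

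Glucose enters a cell through Slc2a carriers, is trapped by hexokinase, and is split and oxidised to pyruvate with a gain of ATP. Lactate dehydrogenase turns pyruvate into lactate, which leaves through Slc16a carriers that need the chaperone basigin. Pyruvate dehydrogenase kinases switch off pyruvate dehydrogenase, which acts on pyruvate inside mitochondria. Glycogen stores glucose as a branched polymer. Activated B cells and lymphoma lines are known for rapid glycolysis, and many of its genes are textbook targets of hypoxia-inducible factors.

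Library totals ran from 23194920 to 121623410 counts, with the control sgRNA libraries the deepest. Levels are given as CPM, counts scaled to library size with TMM factors, or as RPKM, the same per kilobase of exon. A count of 3, taken as the floor, equalled between 0.0270 and 0.140 CPM. Cd4 itself had 30959 and 40422 counts under its own sgRNA, against 127 and 124 under the control sgRNA and 37 and 17 without any, which matched the labels. None of 10 B cell markers was at or under the floor in every library, and their summed level was 4420 to 8070 CPM, while 8 of 10 T cell markers were at or under the floor in every library and their summed level was at most 0.939 CPM. The myeloid list summed to between 1.86 and 7.03 CPM and the fibroblast list to at most 0.544 CPM. Mitochondrial transcripts took 2.65% and 2.69% of wild-type counts, 6.63% and 11.5% of control sgRNA counts, and 5.96% and 6.90% of Cd4 sgRNA counts. The control sgRNA replicates stood further apart than the others. The median absolute difference between replicates over all tested genes was 0.259 on the log2 scale for control sgRNA, against 0.0808 for wild type and 0.0835 for Cd4 sgRNA. The study describes the 2 libraries of a group as biological replicates, repeated independently. In bulk RNA fewer expressing cells and less RNA per cell cannot be told apart.

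The enzymes of the shared trunk of glycolysis dominated the list. Per kilobase of exon, the mean level over the 6 libraries was highest for Aldoa (2427 RPKM), the aldolase that splits the sugar into trioses, followed by Ldha (1889 RPKM), Pkm (1693 RPKM), Gapdh (1209 RPKM) and Tpi1 (986 RPKM). The regulated entry steps were far lower, with Slc2a1 at 66.8 RPKM, Hk2 at 14.3 RPKM and Hk1 at 8.65 RPKM. Neighbours in this order were often closer than their spread: Aldoa ranged from 1731 to 4097 RPKM between libraries, a range that takes in the mean of Ldha. The summed share of the 42 genes was taken of the counts of tested genes, not of all counts in a library. On this base it was 2.39% and 2.51% in the wild-type libraries. The control sgRNA libraries had 2.17% and 3.06%, and the Cd4 sgRNA libraries had 1.88% and 1.69%. The Cd4 sgRNA libraries were thus below every other library, and the control sgRNA libraries lay on either side of wild type.

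**Figure D1:**
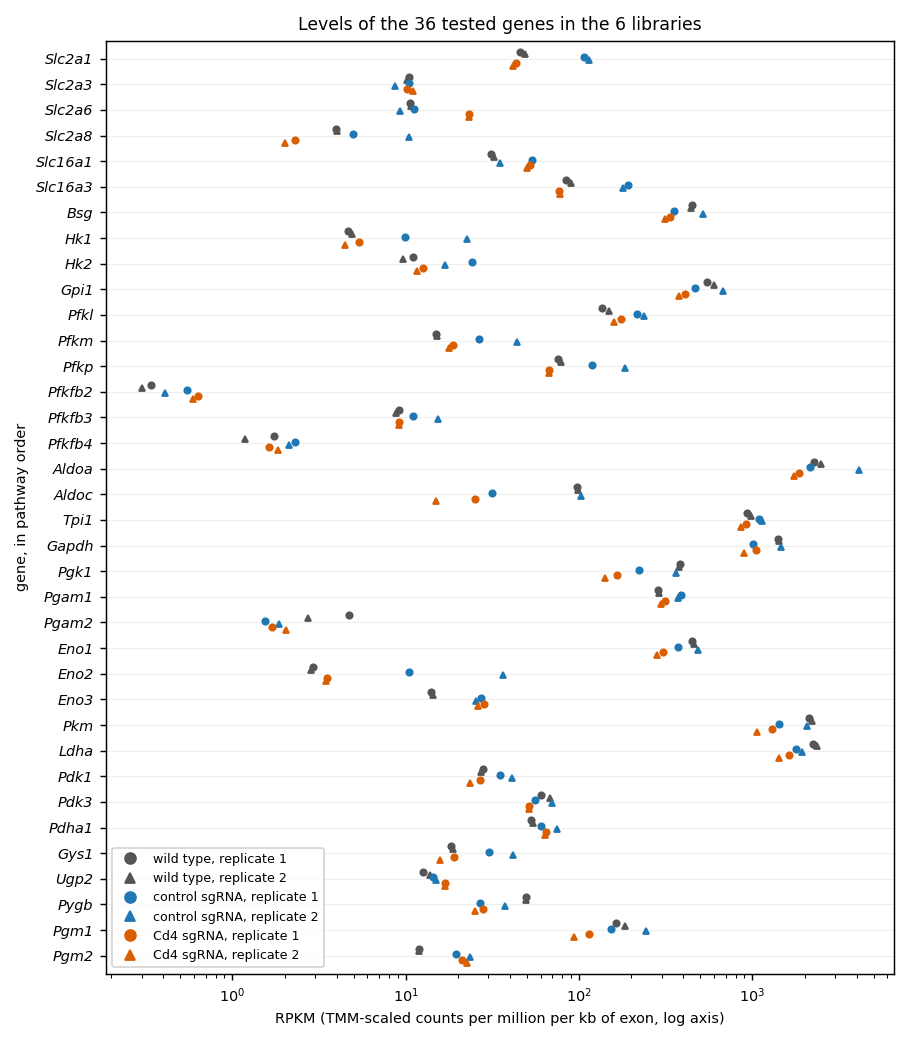
Level of each of the 36 tested genes in the 6 libraries, in pathway order from top to bottom, as RPKM on a log axis. Colours stand for groups, circles for replicate 1 and triangles for replicate 2. The wild-type and Cd4 sgRNA pairs mostly lie close together, while the control sgRNA pair is spread for Hk1, Aldoc, Eno2 and Slc2a8.

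The levels of Eno1 and Gapdh are uncertain. The transcripts of both genes were searched against the GENCODE M21 set for near copies, taken as at least 300 aligned bases at 95% identity. Eno1b, a near copy of Eno1, took between 87.9% and 90.0% of the summed counts of the pair, and the pseudogene Gapdh-ps15 took between 66.1% and 69.8% of the sum with Gapdh. How the counting placed reads that fit several genes is not stated. With copies added, Eno1 and Eno1b summed to 7492 and 8210 CPM in wild type, 5463 and 7230 CPM with control sgRNA, and 4934 and 4279 CPM with Cd4 sgRNA. Gapdh with Gapdh-ps15 summed to 5301 and 5762 CPM, 4131 and 5959 CPM, and 3832 and 3449 CPM in the same order. In both sums the Cd4 sgRNA libraries were the lowest. Such a copy with a row was found for 4 of the 42 genes, the others being Pfkp and Pdha1, whose matches were the overlapping genes Pitrm1 and Map3k15.

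Between control sgRNA and wild-type cells, 14 of the 36 tested genes were higher and 2 were lower at an adjusted p under 0.05, against 14.5% and 13.5% of all genes tested. That is 38.9% of the tested list higher and 5.56% lower, with 23 at an unadjusted p under 0.05, where 42.6% of all genes had one, and a median log2 fold change of 0.40 over the 36 and of -0.00095 over all genes. Of 12 tested genes of upper glycolysis 6 were higher and 0 were lower, with 9 at an unadjusted p under 0.05, and of 7 transporters 2 were higher. Of 8 genes of lower glycolysis 3 were higher and 1 was lower. Because the list was chosen with earlier results of these data known, its shares beside those of all genes are only a description. The call counts depended on single libraries. Of 37 tested, 26 were higher and 4 lower without control sgRNA replicate 1, where the background was 33.0% and 31.2%, and of 36 tested, 20 were higher and 10 lower without control sgRNA replicate 2, where it was 30.4% and 29.5%. Without wild-type replicate 1 or 2 there were 1 and 3 higher, where the background was 0.494% and 1.76%, and 0 lower, where it was 0.416% and 1.33%. Without Cd4 sgRNA replicate 1 or 2 there were 10 higher each, at 6.4% and 6.38%, and 0 lower, at 5.67% and 5.65%. A fit of only these 2 groups called 9 higher and 0 lower, at a background of 6.62% and 5.82%.

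Slc2a1, the main glucose carrier of dividing cells, stood at 118 and 125 CPM in wild type, 276 and 293 CPM with control sgRNA, and 111 and 108 CPM with Cd4 sgRNA. It rose 2.34-fold in control sgRNA cells (log2 fold change 1.23, standard error, SE, 0.09, adjusted p = 0.00097, edgeR's quasi-likelihood test). Slc16a3, the lactate exporter typical of highly glycolytic cells, stood at 218 and 233 CPM, 496 and 462 CPM, and 196 and 200 CPM in the same groups. It rose 2.13-fold in control sgRNA cells (log2 fold change 1.09, SE 0.09, adjusted p = 0.0014, and 0.051 without wild-type replicate 1). For both carriers the control sgRNA replicates were close to each other and far above all 4 other libraries. In Cd4 sgRNA cells neither passed the threshold against wild type, with adjusted p of 0.24 for Slc2a1 and 0.17 for Slc16a3. Against control sgRNA cells Slc2a1 fell by 1.38 on the log2 scale (SE 0.09, adjusted p = 0.010) and Slc16a3 fell by 1.28 (SE 0.09, adjusted p = 0.014). Only these 2 genes of the 36 passed between the transduced groups, where 0.0483% of all genes tested were lower and 0.0241% higher. The span of Slc16a3 overlaps that of Csnk1d, which had 78526 counts over the 6 libraries, and whether reads were counted by strand is not known here.

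The starts of these carriers are shown because they were the only genes of the list called between the transduced groups. Slc2a1 lies on chromosome 4 of GRCm38 from 119108745 to 119137330 and Slc16a3 on chromosome 11 from 120948484 to 120959000. RefSeq windows of 250 bases before to 50 after a transcription start were at hand for 40 of the 42 genes, those without being Slc2a3 and Bsg. Capitals mark ACGTG or GCGTG, the core letters of hypoxia response elements, read on either strand (CACGT or CACGC in the printed strand), where ACGTG can also be part of an E-box, CACGTG. Both windows are on the plus strand, at chr4:119108495-119108794 and chr11:120948817-120949116 of GRCm38.p6.
Slc2a1: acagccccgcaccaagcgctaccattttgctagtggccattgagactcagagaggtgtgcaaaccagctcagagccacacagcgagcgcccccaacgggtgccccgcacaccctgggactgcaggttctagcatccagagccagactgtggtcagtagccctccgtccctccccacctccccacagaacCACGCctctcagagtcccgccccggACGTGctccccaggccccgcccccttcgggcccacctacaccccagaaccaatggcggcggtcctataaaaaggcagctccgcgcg
Slc16a3: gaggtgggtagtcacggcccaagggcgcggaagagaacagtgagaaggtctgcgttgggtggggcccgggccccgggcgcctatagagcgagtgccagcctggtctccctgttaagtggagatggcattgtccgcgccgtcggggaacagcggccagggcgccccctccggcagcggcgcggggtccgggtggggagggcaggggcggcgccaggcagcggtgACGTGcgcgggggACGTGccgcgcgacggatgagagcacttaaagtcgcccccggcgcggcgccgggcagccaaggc
Each window held 2 matches. Over all the windows of the list 44 of 57 held at least 1 match, or 77.2%, against 14380 of 32851, or 43.8%, of all RefSeq windows of this length. The list's windows were also richer in CpG, with a median of 17 against 7, and in G and C, with 60.7% against 52.7%. Gys1 and Eno2, both called in control sgRNA cells, had no match. A match is a description of letters and no binding was measured.

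The hexokinases and phosphofructokinases, which commit glucose to the pathway, were higher in control sgRNA cells in every tested isozyme, with Hk3 too low to test. Hk2, the inducible hexokinase, stood at 60.6 and 53.2 CPM in wild type, 133 and 92.5 CPM with control sgRNA, and 69.3 and 64.2 CPM with Cd4 sgRNA. Its log2 fold change between control sgRNA and wild type was 0.99 (SE 0.18, adjusted p = 0.013). Hk1, the housekeeping hexokinase, stood at 20.9 and 22.0 CPM, 44.4 and 102 CPM, and 24.3 and 20.1 CPM, with a log2 fold change of 1.78 (SE 0.38, adjusted p = 0.020). Both control sgRNA libraries were above all others for each hexokinase, but Hk1 was highest in replicate 2 and Hk2 in replicate 1. Pfkl, the most abundant phosphofructokinase per length, stood at 504 and 557 CPM, 802 and 880 CPM, and 646 and 589 CPM (log2 fold change 0.67, SE 0.10, adjusted p = 0.0079). Pfkm, the muscle type, stood at 45.8 and 46.1 CPM, 80.5 and 133 CPM, and 56.8 and 54.3 CPM (log2 fold change 1.21, SE 0.23, adjusted p = 0.014). Pfkp, the platelet type, stood at 302 and 312 CPM, 472 and 731 CPM, and 269 and 266 CPM (log2 fold change 0.97, SE 0.20, adjusted p = 0.017). All 3 phosphofructokinases were called, and the Cd4 sgRNA libraries lay above wild type for Pfkl and Pfkm and below it for Pfkp without passing the threshold. Hk1, Pfkm and Pfkp overlap Hk1os, Senp1 and Pitrm1.

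Bifunctional Pfkfb enzymes make and remove the sugar phosphate that stimulates phosphofructokinase. Pfkfb3, the most abundant of them, stood at 48.1 and 46.2 CPM in wild type, 58.2 and 81.3 CPM with control sgRNA, and 48.2 and 48.1 CPM with Cd4 sgRNA. It rose in control sgRNA cells by a log2 fold change of 0.56 (SE 0.16, adjusted p = 0.047). Pfkfb2 stood at 3.27 and 2.90 CPM, 5.27 and 3.93 CPM, and 6.07 and 5.69 CPM. Its log2 fold change with control sgRNA was also 0.56, without a call (SE 0.22, adjusted p = 0.098 in edgeR's test). It was higher in Cd4 sgRNA than in wild-type cells (log2 fold change 0.91, SE 0.23, adjusted p = 0.038). Pfkfb4 stood at 5.85 and 3.97 CPM, 7.69 and 7.16 CPM, and 5.46 and 6.12 CPM and passed in no comparison.

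**Figure D2:**
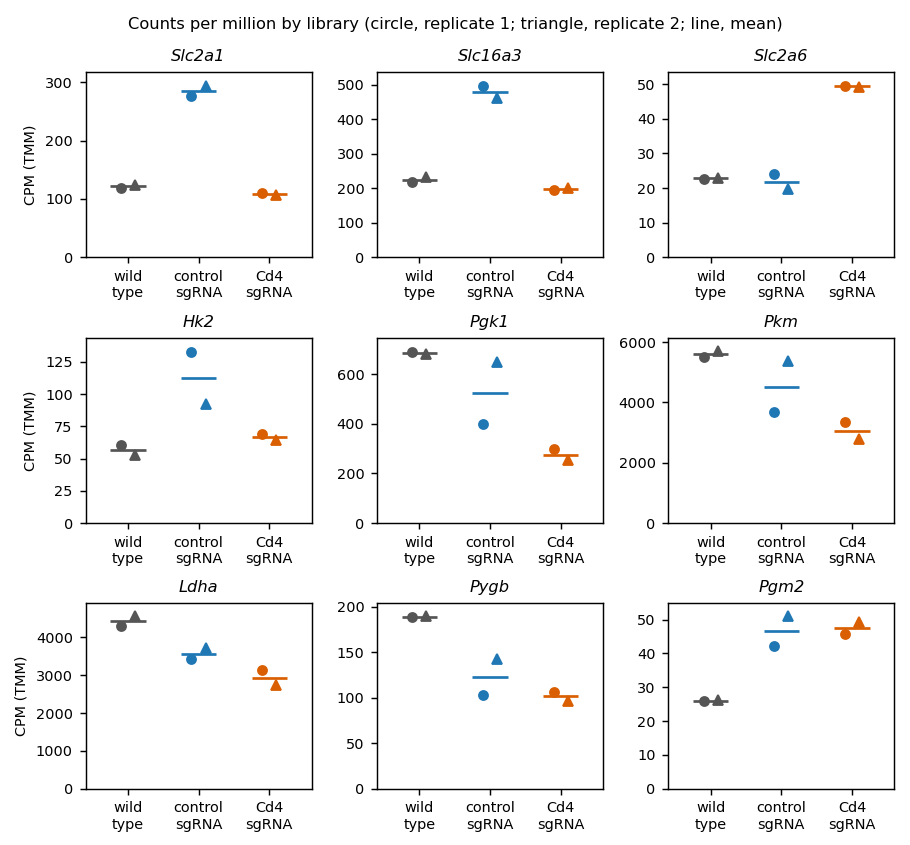
CPM in each library for 9 of the genes, with circles for replicate 1, triangles for replicate 2, lines for group means and axes from 0. Slc2a1 and Slc16a3 are highest with control sgRNA, Slc2a6 is highest with Cd4 sgRNA, Pgm2 is higher and Pygb lower in both transduced groups, and Pgk1, Pkm and Ldha are lowest with Cd4 sgRNA.

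In lower glycolysis the calls in control sgRNA cells went in both directions. Pgam1, the phosphoglycerate mutase of most tissues, stood at 525 and 532 CPM in wild type, 708 and 680 CPM with control sgRNA, and 576 and 546 CPM with Cd4 sgRNA, a log2 fold change of 0.39 between the first 2 groups (SE 0.08, adjusted p = 0.019). Its muscle sister Pgam2 was lower, at 4.28 and 2.48 CPM, 1.40 and 1.68 CPM, and 1.53 and 1.85 CPM (log2 fold change -1.23, SE 0.28, adjusted p = 0.025). Replicate 2 minus replicate 1 of wild-type Pgam2 was -0.73 on the log2 scale. Enolases turn phosphoglycerate into phosphoenolpyruvate. Eno2, the neuronal type, stood at 7.64 and 7.47 CPM, 27.4 and 95.8 CPM, and 9.31 and 9.15 CPM, with the largest log2 fold change of the list, 3.02 (SE 0.59, adjusted p = 0.016). Its control sgRNA replicates differed 3.5-fold from each other, and both were above every other library. Eno3, the muscle type, stood at 21.2 and 21.8 CPM, 41.1 and 38.9 CPM, and 42.8 and 39.9 CPM. It was higher in both transduced groups, with log2 fold changes of 0.90 for control sgRNA (SE 0.10, adjusted p = 0.0026) and 0.94 for Cd4 sgRNA (SE 0.10, adjusted p = 0.0035). The span of Eno3 overlaps that of Pfn1, which was counted 318550 times over the 6 libraries.

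At the exit of the pathway, Pdk1, a kinase that switches off pyruvate dehydrogenase, stood at 143 and 140 CPM in wild type, 181 and 211 CPM with control sgRNA, and 137 and 121 CPM with Cd4 sgRNA. It was higher in control sgRNA cells by a log2 fold change of 0.47 (SE 0.11, adjusted p = 0.028). Pdk3 stood at 120 and 136 CPM, 111 and 140 CPM, and 103 and 102 CPM, and its groups overlapped. Pdha1, a subunit of the dehydrogenase itself, stood between 145 and 206 CPM in all libraries and passed nowhere. Pdk2 was counted 0 and 0 times in wild type, 10 and 77 times with control sgRNA and 3 and 3 times with Cd4 sgRNA, and was too low to be tested.

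Glycogen genes were split. Gys1, glycogen synthase, stood at 67.5 and 68.8 CPM in wild type, 111 and 154 CPM with control sgRNA, and 69.8 and 58.0 CPM with Cd4 sgRNA, a log2 fold change of 0.96 for control sgRNA (SE 0.17, adjusted p = 0.013). Pygb, a glycogen phosphorylase that frees glucose units, went the other way, at 189 and 190 CPM, 103 and 143 CPM, and 107 and 96.7 CPM. It was lower in control sgRNA cells (log2 fold change -0.62, SE 0.16, adjusted p = 0.035) and in Cd4 sgRNA cells (log2 fold change -0.90, SE 0.16, adjusted p = 0.017). Pgm2, a mutase known to prefer pentose phosphates, was higher in both, at 25.9 and 26.2 CPM, 42.2 and 51.0 CPM, and 45.8 and 49.3 CPM. Its log2 fold changes were 0.84 (SE 0.12, adjusted p = 0.0061) and 0.87 (SE 0.12, adjusted p = 0.0084). The 2 comparisons with wild type share the wild-type libraries, so that these pairs of values are not independent of each other. Gys1 overlaps Ruvbl2, which was counted 112138 times.

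In Cd4 sgRNA cells against wild type, 5 of the 36 tested genes were higher and 6 lower, against 9.84% and 10.7% of all genes tested, and the median log2 fold change was -0.12 against 0.0043 over all genes. These shares, 13.9% and 16.7%, are not far from the background. Of 8 genes of lower glycolysis 3 were lower and 1 was higher, with 6 at an unadjusted p under 0.05, and over the 36 there were 17 at such a p, where 37.5% of all genes had one. Leaving out either wild-type library or either Cd4 sgRNA library left 0 genes of the list past the threshold, at a background of 0.369% to 0.958% higher and 0.267% to 0.64% lower, while leaving out control sgRNA replicate 1 or 2 gave 11 higher and 17 lower each, at a background of 32.4% and 26.9% or of 30.7% and 29%. A fit of only these 2 groups called 11 higher and 18 lower, at a background of 31.2% and 30.6%.

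Pgk1, which makes the first ATP of the pathway, stood at 691 and 683 CPM in wild type, 399 and 650 CPM with control sgRNA, and 297 and 255 CPM with Cd4 sgRNA. It fell in Cd4 sgRNA cells by 1.31 on the log2 scale (SE 0.23, adjusted p = 0.015). Pkm, pyruvate kinase, stood at 5511 and 5709 CPM, 3691 and 5357 CPM, and 3355 and 2774 CPM, and fell by 0.87 (SE 0.19, adjusted p = 0.028). Ldha, lactate dehydrogenase, stood at 4290 and 4577 CPM, 3425 and 3713 CPM, and 3131 and 2742 CPM, and fell by 0.59 (SE 0.11, adjusted p = 0.018). For each of the 3 the wild-type libraries were highest, the control sgRNA libraries came next and the Cd4 sgRNA libraries were lowest, with no overlap between groups. Eno1 stood at 793 and 818 CPM, 663 and 862 CPM, and 542 and 497 CPM, and fell by 0.63 (SE 0.14, adjusted p = 0.028), and by 0.77 with Eno1b added (SE 0.16, adjusted p = 0.024). Gapdh stood at 1736 and 1755 CPM, 1246 and 1800 CPM, and 1298 and 1105 CPM, and its change was -0.54 on the log2 scale (adjusted p = 0.086) alone and -0.60 (adjusted p = 0.063) with its copy. Aldoc, the brain type aldolase, stood at 165 and 168 CPM, 53.2 and 175 CPM, and 42.5 and 25.4 CPM, and fell by 2.30 (SE 0.56, adjusted p = 0.036). Its control sgRNA replicates differed 3.28-fold, the second at the wild-type level and the first near Cd4 sgRNA. Aldoa, by far the more abundant aldolase, stood at 4123 and 4516 CPM, 3906 and 7473 CPM, and 3385 and 3157 CPM and passed in no comparison.

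Slc2a6, a hexose carrier of inner membranes, was highest with Cd4 sgRNA. It stood at 22.7 and 22.9 CPM in wild type, 24.0 and 19.8 CPM with control sgRNA, and 49.5 and 49.3 CPM with Cd4 sgRNA. Both Cd4 sgRNA libraries were above the other 4, and the log2 fold change against wild type was 1.12 (SE 0.12, adjusted p = 0.0042). Against control sgRNA it was 1.17 (SE 0.12) with an adjusted p of 0.051, just outside the threshold, and under it in 8 of 18 alternative analyses. Ugp2, which makes the glucose donor for glycogen, stood at 39.0 and 42.8 CPM, 44.4 and 46.4 CPM, and 51.8 and 52.1 CPM, and was higher in Cd4 sgRNA than in wild-type cells by 0.35 on the log2 scale (SE 0.09, adjusted p = 0.044). Of the remaining carriers, Slc16a1, the lactate carrier that works in both directions, stood at 138 and 143 CPM, 236 and 155 CPM, and 231 and 221 CPM (adjusted p = 0.051 for Cd4 sgRNA against wild type). Slc2a8 stood at 8.22 and 8.41 CPM, 10.3 and 21.7 CPM, and 4.76 and 4.20 CPM, and Slc2a3 between 34.4 and 43.7 CPM in all libraries, both without a call. Bsg, basigin, stood between 547 and 915 CPM, Gpi1, the isomerase after hexokinase, between 1084 and 1932 CPM, and Tpi1, which interconverts the trioses, between 1373 and 1830 CPM, and none of the 3 passed in any comparison.

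**Figure D3:**
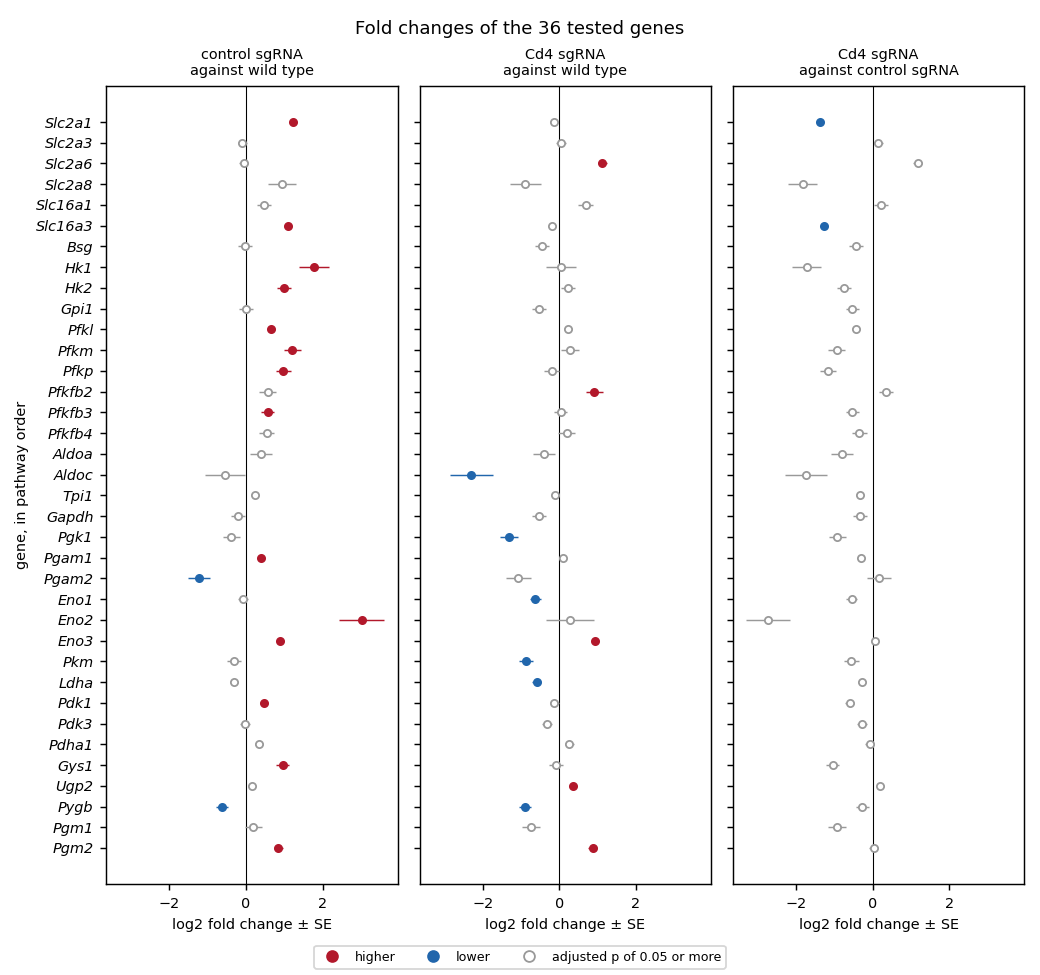
Log2 fold change with its standard error for the 36 tested genes in the 3 comparisons, in pathway order, from edgeR's quasi-likelihood test. Red and blue points are higher and lower at an adjusted p under 0.05, open points are not. In the first panel 14 genes are higher and 2 lower, in the second 5 are higher and 6 lower, and in the third Slc2a1 and Slc16a3 alone are lower.

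The direct comparison of the transduced groups sets the Cd4 sgRNA beside the non-targeting sgRNA, both with TETact-v3. Each sgRNA was carried by its own transduced and sorted cells. The sgRNA and other differences between these cells therefore cannot be told apart. Beyond Slc2a1 and Slc16a3, 0 of the 36 tested genes were called, and 0 were higher. At an unadjusted p under 0.05 there were 24 of 36, of which 23 were lower and 1, Slc2a6, was higher, where 24.9% of all genes tested had such a p. The median log2 fold change was -0.49 against -0.0081 over all genes. DESeq2 called 1 gene higher and 20 lower, at a background of 4.33% and 7.15%, and voomLmFit 0 higher and 2 lower. The calls of both carriers were lost in a fit of these groups alone (adjusted p = 0.13 for each), where 0.00802% of all genes were higher and 0 were lower, and without any single wild-type or Cd4 sgRNA library, with adjusted p from 0.12 to 0.58. Without control sgRNA replicate 1 or replicate 2 both passed. In the same fits 28 and 20 genes of the list were lower and 4 and 2 higher, at a background of 30.9% and 12.8% lower and 30.3% and 12.1% higher. Log2 fold changes of Slc2a1 stayed between -1.42 and -1.34 and those of Slc16a3 between -1.33 and -1.22 in all 18 alternatives.

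The share of each sister enzyme differed between groups in several families. Shares are given of length-scaled counts within a family, and with 2 libraries a group an exact permutation test cannot give a two-sided p below 0.333, so no shift in a ratio could pass a threshold. Slc2a1 held 64.7% and 66.1% of the counts of the 4 glucose carriers in wild type, 80.1% in each control sgRNA library, and 54.8% and 53.7% with Cd4 sgRNA, where Slc2a6 rose from 15.0% and 14.6% in wild type to 29.4% and 29.6%. The summed level of the 4 carriers was 70.9 and 73.4 RPKM, 134 and 142 RPKM, and 78.8 and 77.9 RPKM. Slc16a3 held 73.0% and 73.7% of the counts of both lactate carriers, 78.3% and 83.6%, and 59.4% and 60.7%. Its mean log2 ratio to Slc16a1 was 1.46 in wild type, 2.10 with control sgRNA and 0.59 with Cd4 sgRNA, with no overlap between any groups (exact permutation p = 0.333 for each pair, adjusted p = 0.461 over 36 ratio comparisons). Glucose carriers and lactate carriers thus each had their lowest Slc2a1 or Slc16a3 share with Cd4 sgRNA and their highest with control sgRNA. Pgm2 held 6.80% and 6.14% of the phosphoglucomutase counts, 11.3% and 8.75%, and 15.6% and 19.5%, beside Pgm1, which stood at 380 and 428 CPM, 355 and 570 CPM, and 265 and 218 CPM and passed nowhere.

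Hk1 held 29.6% and 33.6% of hexokinase counts in wild type, 30.0% and 27.7% with Cd4 sgRNA and 29.0% in control sgRNA replicate 1, but 57.5% in control sgRNA replicate 2. That library alone had more Hk1 than Hk2 per length. Among phosphofructokinases the order Pfkl, Pfkp, Pfkm was the same in all 6 libraries, with Pfkl at 51.0% to 66.9%. Pfkfb3 held 79.1% to 85.8% of the counts of the Pfkfb genes on the list, which does not hold every Pfkfb gene. Aldoa held 95.9% to 99.1% of aldolase counts, and Pgam1 98.4% to 99.6% of mutase counts. Enolase shares rest on how Eno1 is counted: Eno2 held 0.595% to 6.65% of the family with Eno1 alone and 0.0607% to 0.873% with Eno1b added.

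**Figure D4:**
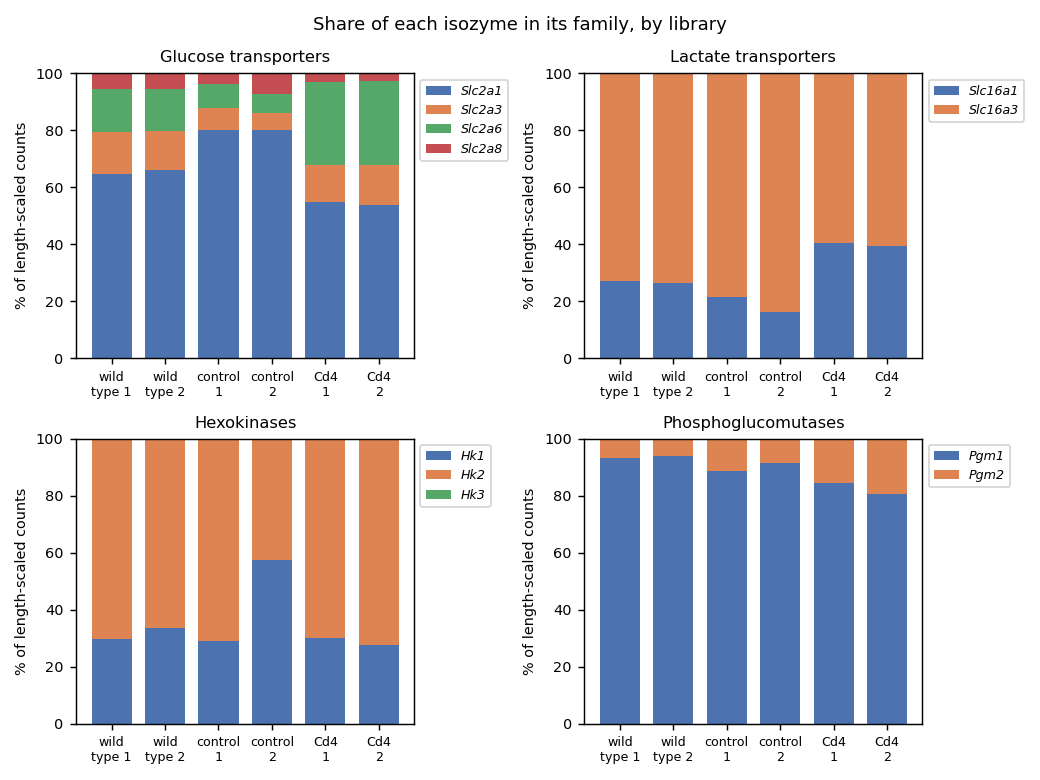
Share of each isozyme in the length-scaled counts of its family in each library, as stacked bars from 0 to 100%. Slc2a6 widens with Cd4 sgRNA, Slc16a3 widens with control sgRNA and narrows with Cd4 sgRNA, Hk1 widens in control sgRNA replicate 2 alone, and Pgm2 widens in both transduced groups.

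Some isozymes were not counted at all. Ldhb, the lactate dehydrogenase subunit of oxidative tissues, Gbe1, the glycogen branching enzyme, and Pygl, the liver glycogen phosphorylase, were counted 0 times in every library, while Hk3 and Pdk4 had at most 3 counts in any library. Ldha and Pygb were counted in every library, and a count of 0 allows a level of up to 0.0270 CPM in the deepest library. Of these families the sister starts are shown together, with each CpG, the site that TET1 acts on, in capitals. The Ldha window is on the plus strand at chr7:46845554-46845853 and the Ldhb window on the minus strand at chr6:142507908-142508207, and those of Pygb and Pygl are on the plus and minus strands at chr2:150786546-150786845 and chr12:70227634-70227933, all RefSeq on GRCm38.p6. For Ldha, which has more than 1 window, the one richest in CpG is given.
Ldha: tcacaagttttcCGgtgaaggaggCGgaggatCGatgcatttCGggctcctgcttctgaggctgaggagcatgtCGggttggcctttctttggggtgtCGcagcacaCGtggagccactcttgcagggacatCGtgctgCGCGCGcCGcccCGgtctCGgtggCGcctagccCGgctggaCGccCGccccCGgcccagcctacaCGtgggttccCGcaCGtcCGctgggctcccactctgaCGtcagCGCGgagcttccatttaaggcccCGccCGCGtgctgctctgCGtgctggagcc
Ldhb: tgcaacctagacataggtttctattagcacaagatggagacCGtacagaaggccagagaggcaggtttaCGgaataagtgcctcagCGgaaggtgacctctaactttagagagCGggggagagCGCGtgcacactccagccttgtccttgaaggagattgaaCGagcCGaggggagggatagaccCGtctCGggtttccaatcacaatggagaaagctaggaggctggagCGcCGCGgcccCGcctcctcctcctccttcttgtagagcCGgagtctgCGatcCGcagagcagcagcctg
Pygb: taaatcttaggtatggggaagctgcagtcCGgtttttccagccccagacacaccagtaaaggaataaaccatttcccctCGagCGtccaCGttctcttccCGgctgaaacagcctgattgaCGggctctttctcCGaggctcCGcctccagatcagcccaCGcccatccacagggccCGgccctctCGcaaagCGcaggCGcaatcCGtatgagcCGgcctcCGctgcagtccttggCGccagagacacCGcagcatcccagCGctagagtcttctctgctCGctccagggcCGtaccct
Pygl: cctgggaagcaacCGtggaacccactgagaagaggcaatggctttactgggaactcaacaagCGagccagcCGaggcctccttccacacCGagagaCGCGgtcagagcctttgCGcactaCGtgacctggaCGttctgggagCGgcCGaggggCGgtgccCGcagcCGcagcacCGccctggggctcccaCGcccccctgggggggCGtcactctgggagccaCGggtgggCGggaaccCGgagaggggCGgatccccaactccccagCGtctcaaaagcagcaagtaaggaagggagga
The counted and uncounted sisters of glycogen phosphorylase had like numbers of CpG, 21 in Pygb and 22 in Pygl, while Ldha had 30 and Ldhb 17. Gbe1, on chromosome 16, had 14. All 5 were above the median of 7 over RefSeq windows, and the CpG numbers alone did not separate counted from uncounted genes. DNA methylation was not analysed here.

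The control sgRNA replicates lay further apart in these genes than in all genes at the median, a difference given without a test. The median absolute log2 difference between them was 0.436 over the 36 tested genes and 0.259 over all genes, while it was 0.0472 and 0.0808 in wild type and 0.107 and 0.0835 with Cd4 sgRNA. Over 0.5 on the log2 scale lay 15 of the 36, or 41.7%, against 21.5% of all genes. Control sgRNA replicate 2 was higher for Eno2 (3.5-fold), Aldoc (3.28-fold), Hk1 (2.31-fold), Slc2a8 (2.10-fold) and Aldoa (1.91-fold), while Slc16a1 and Hk2 were lower in it, at 0.659 and 0.695 of replicate 1. Slc2a1 and Slc16a3 were at 1.06 and 0.932 of replicate 1. Replicate 2 also had the higher mitochondrial share, 11.5% against 6.63%, and summed B cell markers of 7900 against 5160 CPM. At an adjusted p under 0.05 in edgeR's test, 5 of 10 B cell markers were lower than wild type with control sgRNA, against 13.5% of all genes. With Cd4 sgRNA 4 of 10 were lower, against 10.7%, and the list summed to 4990 and 4420 CPM. By sign alone, 9 of 10 log2 fold changes were below 0 with control sgRNA and 10 of 10 with Cd4 sgRNA. The part of these values in the results above was not tested.

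**Figure D5:**
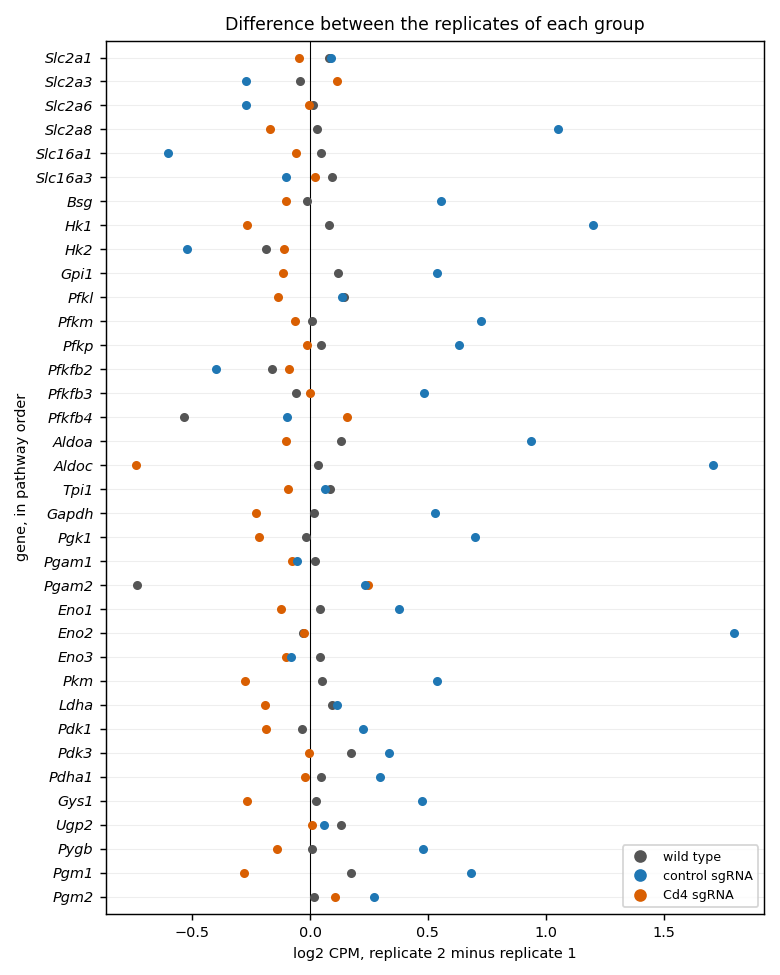
Difference in log2 CPM of replicate 2 minus replicate 1 for the 36 tested genes, by group. Wild-type and Cd4 sgRNA points mostly lie near 0, and control sgRNA points reach 1.80 for Eno2 and -0.60 for Slc16a1.

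Of other genes of glucose metabolism 80 were tested. With control sgRNA 12 of them were higher than in wild type and 7 lower, or 15% and 8.75%, against 14.5% and 13.5% of all genes. With Cd4 sgRNA 11 were higher and 8 lower, or 13.8% and 10%, against 9.84% and 10.7%. Leaving out 1 library gave between 2 and 33 higher and 0 and 19 lower with control sgRNA, while the background ran from 0.494% to 33% higher and from 0.416% to 31.2% lower. With Cd4 sgRNA it gave between 1 and 32 higher and 0 and 18 lower, while the background ran from 0.369% to 32.4% and from 0.267% to 29%. Without wild-type replicate 1 there were 2 and 1 higher, and without control sgRNA replicate 1 there were 33 and 32. Between the transduced groups edgeR called 0, where 0.0241% of all genes were higher and 0.0483% lower. It gave 19 an unadjusted p under 0.05, where 24.9% of all genes had one. A fit with voomLmFit called 0, at a background of 0.00805% and 0.0483%. DESeq2 called 3 higher and 3 lower, at a background of 4.33% and 7.15%. In the pentose phosphate pathway, H6pd, the dehydrogenase of the endoplasmic reticulum, stood at 25.01 and 25.69 CPM in wild type, 72.2 and 66.4 CPM with control sgRNA, and 66.4 and 66.9 CPM with Cd4 sgRNA. It was higher in both transduced groups (log2 fold changes 1.45 and 1.40, adjusted p = 0.00078 and 0.0011). Prps2, which makes the ribose donor of nucleotides, was also higher in both, by 0.63 and 0.45 on the log2 scale (adjusted p = 0.0045 and 0.016), and Rpia, the ribose phosphate isomerase, was lower in both, with log2 fold changes of -0.55 and -0.69 (adjusted p = 0.010 and 0.0082). Dlat, a core subunit of pyruvate dehydrogenase, was higher in both (0.43 and 0.40, adjusted p = 0.014 and 0.023), and Pdhb was lower in both (-0.37 and -0.29, adjusted p = 0.020 and 0.049). Gfpt1, the entry to amino sugars, was higher in both by 0.47 and 0.50 (adjusted p = 0.011 and 0.013). Pmm2, a phosphomannomutase, was lower with control sgRNA (log2 fold change -1.59, adjusted p = 0.0054). Slc37a4, which carries phosphorylated glucose into the endoplasmic reticulum, was higher with control sgRNA by 0.40 (adjusted p = 0.017), and Pck2 was lower with Cd4 sgRNA (log2 fold change -1.21, adjusted p = 0.033).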

How the data were processed

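Bulk RNA-seq of 6 libraries, 2 per group, was analysed. The authors aligned the reads to GRCm38/mm10 and counted them per gene with featureCounts of Rsubread using its inbuilt RefSeq annotation, and deposited raw counts. Aligner settings for reads that fit several genes, and strand, are not given in the sources used here. Symbols were matched by Entrez identifier, genes without a single symbol in the RefSeq table, mitochondrial genes and rRNA were left out (25227 of 27179 kept), and genes with low counts were removed with filterByExpr, leaving 12430, which held 86.0% to 95.0% of counts. edgeR 4.0.16 in R 4.3.3 fitted all 6 libraries with 1 term per group, TMM scaling and robust quasi-likelihood tests (two-sided), with Benjamini-Hochberg adjustment over all genes at 0.05. Standard errors are the fold change divided by the root of F. The test was tried on simulated counts with the same spread in every group. In the real libraries the control sgRNA replicates lay further apart, so the simulation does not show how the test fares here. Alternatives were voomLmFit (limma 3.58.1), DESeq2 1.42.0, other scalings and filters, a replicate block, and leaving out each library. Near copies were found with blastn 2.17.0, and ratios of isozymes used 0.5 added counts. The 42 genes and all lists were chosen with earlier results of these data known. Genes of the list called in any comparison, and their isozymes, are given with values, and of each other list up to 3 genes with the smallest p past the threshold were eligible. A gene of the other lists is not reported here.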

Additional observations from a re-analysis of the deposited data

How the results depend on the processing

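Fold changes were followed through the 18 alternatives only for the 64 of 108 pairs of a tested gene and a comparison with an unadjusted p under 0.05. Of these refits 928 kept their side of the threshold, 109 lost a call, 115 gained one and 0 reversed. With only the 2 groups compared, 9 of the 36 tested genes were higher and 0 lower in control sgRNA against wild type. Other pathway genes gave 5 and 3, and the background was 6.62% and 5.82% of all genes. In Cd4 sgRNA against wild type there were 11 and 18, and 29 and 19 of the other pathway genes, at 31.2% and 30.6%. Between the transduced groups 0 were lower, at a background of 0. DESeq2 gave 12 lower in Cd4 sgRNA against wild type, where 14.6% of all genes were lower. Between the transduced groups it gave 1 higher and 20 lower (other pathway genes 3 and 3), at 4.33% and 7.15%. With voomLmFit 3 were higher in Cd4 sgRNA against wild type, at 8.2%. The earlier edgeR quasi-likelihood method, RLE scaling, library size alone, no low-count filter, a CPM filter and no annotation filter each gave 1 higher, Slc2a6, between the transduced groups. Among all genes 0.0161% to 0.0364% were higher there.

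Leaving out 1 library gave 1 to 26 higher and 0 to 10 lower in control sgRNA against wild type (other pathway genes 2 to 33 and 0 to 19), 0 to 11 and 0 to 17 in Cd4 sgRNA against wild type (1 to 32 and 0 to 18), and 0 to 4 and 0 to 28 between the transduced groups (0 to 23 and 0 to 31). The share of all genes called also changed between these fits. In control sgRNA against wild type it ran from 0.494% to 33% higher and from 0.416% to 31.2% lower. In Cd4 sgRNA against wild type it ran from 0.369% to 32.4% and from 0.267% to 29%. Between the transduced groups it ran from 0.00777% to 30.3% and from 0 to 30.9%. The ranges of the list therefore cannot be read apart from these shares. Such fits assume that the lone library of a group varies like the other groups. The cause was not tested.

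Replicate numbers did not pair the samples: correlations of replicate differences were -0.03, 0.02 and -0.14. With the replicate block, 13 genes were higher and 2 lower, 4 higher and 6 lower, and 0 higher and 2 lower in the 3 comparisons. The background was 12.5% and 11.4%, 7.8% and 8.59%, and 0.0161% and 0.0402% of all genes. A crossed block, chosen after seeing the data, gave 14 and 2, 5 and 9, and 0 and 2. Its background was 14.9% and 13.6%, 10.1% and 11.4%, and 0.0241% and 0.0724%. Counting near copies together, also added later, left all counts as they were.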

Other observations

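The nearest protein-coding genes around those that were not counted differed. Around Ldhb the 6 nearest protein-coding genes with a row were taken, 3 on each side. Gys2, Kcnj8, Spx and Abcc9 had at most 1 count in any library. Golt1b, 76.4 kb away, had 1013 to 5378 counts, and Cmas, 249 kb away, had 1379 to 5379. Around Pygl, 4 of 6 were counted in every library, namely Nin (839 to 6338 counts), Tmx1 (1639 to 8260), Gm9997 (6 to 90) and Frmd6 (15 to 50), while Abhd12b and Trim9 had at most 2 counts. All 6 neighbours of Gbe1, which lay 450 to 4970 kb away, had at most 17 counts. Gys1, glycogen synthase, was counted in every library while Gbe1, the branching enzyme, had 0 counts in all 6.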
